A study of Rattus norvegicus with 30 samples.

Results

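The acyl-CoA thioesterases are the enzymes that split a fatty acyl-CoA into the free fatty acid and coenzyme A. The members followed here are Acot1, Acot2, Acot3, Acot4, Acot7, Acot8, Acot9, Acot12 and Acot13. They were chosen by name, as the probe sets that the platform annotation assigns to 1 of these symbols alone, which gave 9 genes and 12 probe sets of the 31099 on the array. All 12 probe sets passed the filter on low signals, that of Acot1 only through the treated wells, and the 9 genes stand among 11545 genes tested. The cells were rat hepatocytes (Sprague Dawley, male) bought frozen and plated on collagen under Matrigel. On day 3 of culture they received WY-14643 (pirinixic acid), which activates the nuclear receptor PPARα, at 8 µM or 200 µM, or the vehicle, labelled 1% DMSO; the labels do not settle the DMSO content of the treated wells. RNA was taken 24 h or 48 h later and read on an Affymetrix rat array. Each of the 6 groups held n = 5 wells. The labels call the wells separate biological replicates without naming the animals, so each SD, standard error and p measures the spread between wells, which may be technical.

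Fatty acyl-CoAs are made by acyl-CoA synthetases and are then oxidised, built into lipids or hydrolysed again by thioesterases. Hydrolysis frees coenzyme A for further use and returns a fatty acid that can leave the compartment or act as a ligand. PPARα is the liver's sensor of fatty acids, and in rodent liver its agonists are long known to induce thioesterases together with the enzymes of fatty acid oxidation. The family has a pair of unrelated folds. Acot1 to Acot4 are α/β-hydrolases (type I) that differ mainly in where they sit: Acot1 in the cytosol, Acot2 in mitochondria, Acot3 and Acot4 in peroxisomes. Acot7, Acot8, Acot9, Acot12 and Acot13 are hotdog-fold enzymes (type II). Acot8 is peroxisomal, Acot7 and Acot12 are cytosolic, and Acot9 and Acot13 act in or at mitochondria.

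In the RefSeq annotation of the rat genome (GRCr8) the type I genes were neighbours on chromosome 6, in the order Acot2, Acot1, Acot4, Acot3, Acot5 and Acot6, with the ribosomal protein gene Rpl23al8 between Acot1 and Acot4. Acot5 and Acot6 had no probe set of their own symbol and were not analysed here. The type II members lay apart, on chromosomes 5 (Acot7), 3 (Acot8), X (Acot9), 2 (Acot12) and 17 (Acot13). PPARα binds DNA with its partner RXR at a direct repeat of the core element AGGTCA with a single base of any kind between the copies. The RefSeq promoter windows, from 250 bases before to 50 bases after each start site, were searched for this repeat on both strands. All 9 members had a window, and Acot7 had 2, which made 10. None held the exact repeat. In 3 of the 10 windows (30%), those of Acot4, Acot8 and Acot12, a copy differed from the repeat at a single base, against 147 of all 33469 windows (0.439%). The same 3 windows were the only ones of the 10 with an exact AGGTCA on either strand, which is part of the repeat and was found in 16.2% of all windows. These stretches are shown because 3 members hold them and the other 6 do not. They do not set apart the members that rose. Acot1, Acot2, Acot3, Acot7 and Acot13 lack them and also rose at both doses and both times. Capitals mark the matched 13 letters, each written on the strand of its gene up to at most the start site.
Acot4 promoter (chr6:109399826-109399853, plus strand): ctcagcccagaagccAGACCTCTGACCT
Acot8 promoter (chr3:173962189-173962225, minus strand): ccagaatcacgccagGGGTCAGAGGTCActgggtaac
Acot12 promoter (chr2:24721839-24721881, plus strand): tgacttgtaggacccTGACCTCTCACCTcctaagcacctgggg
In the direction of the repeat, counted from 1 at its 5′ end, the difference was A13T for Acot4, A1G for Acot8 and C5G for Acot12. The matched letters ended 1 base before the start site in Acot4, 10 bases before it in Acot8 and 93 bases before it in Acot12. They read along the gene in Acot8 and on the opposite strand in Acot4 and Acot12. In the windows of Acot1, Acot2, Acot3, Acot7 and Acot13 the closest stretch differed at 4 bases, and in that of Acot9 at 5. A match here is one of letters and does not show binding, and its absence says only that these letters are not in this window.

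The deposited values are MAS5 signals, in which the probes of a probe set are summarised to 1 linear number, already scaled so that the trimmed mean was alike on all 30 arrays. The median signal lay between 385 and 439 on 29 arrays. The array of 48 h vehicle replicate 4 stood apart, with a median of 765 and a median correlation with its own group of 0.896, against 0.973 to 0.980 for the others. It was the lowest of its 5 wells for 9 of the 12 thioesterase probe sets and the highest for 2, so results that rest on it are given with and without it. Of 10 hepatocyte markers listed, the 9 with a probe set, albumin (Alb) and Hnf4a among them, were all above the signal filter. Levels of different thioesterases are not compared with each other.

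Against vehicle, 8 of the 9 thioesterases rose at both doses and both times, and none fell. The count was 8 of 9 at 8 µM and 24 h, where 11.1% of all genes rose, and 8 of 9 at 200 µM and 24 h, against 11.6%. At 48 h it was 9 of 9 at 8 µM, against 16.7%, and 8 of 9 at 200 µM, against 16.8%. Of all genes, 13.8%, 13.1%, 18.9% and 17.1% fell in the same order. The 48 h split of all genes depends on the scaling: of the calls at 8 µM 46.9% rose with the values as deposited and 73.1% after median centring, and at 200 µM 49.6% and 73.7%. Median centring moved the median of all genes at 48 h from -0.063 to 0.13 at 8 µM and from -0.05 to 0.12 at 200 µM. The median log2 fold change of the 9 members was 1.77, 1.75, 1.83 and 1.91, while that of all genes lay between -0.06 and -0.02. Without Acot1, which passed the filter through the treated wells and so had to differ, 7, 7, 8 and 7 of 8 members rose, with medians of 1.68, 1.70, 1.71 and 1.88. In 8 members, Acot1 included, the 5 treated wells all lay above the 5 vehicle wells in each of the 4 comparisons, as they did for 9.98%, 9.87%, 11.2% and 11.4% of all genes. The member whose wells overlapped was Acot9. The doses share the vehicle wells of their time, so the comparisons are not independent. Leaving out 48 h vehicle replicate 4 left 8 of 9 in all 4 comparisons, against 13.7%, 14.6%, 16.8% and 17.2% of all genes.

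**Figure D1:**
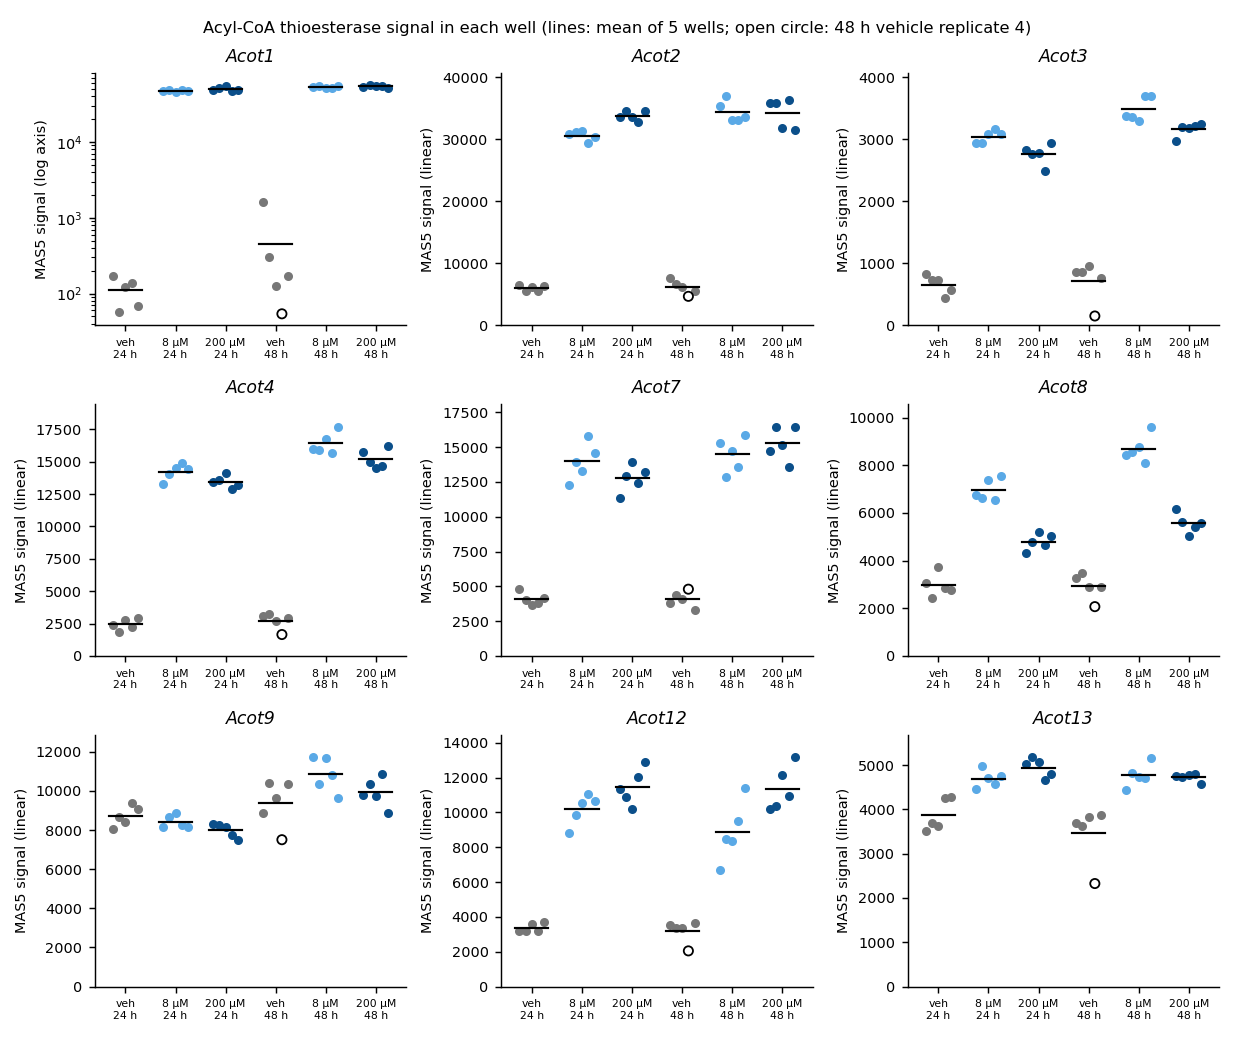
Signal of the 9 thioesterases in each well, 1 panel a gene with groups along the horizontal axis (vehicle in grey, 8 µM light blue, 200 µM dark blue); the vertical axis is the MAS5 signal, logarithmic for Acot1 and linear from 0 for the others, and lines are means of 5 wells. Treated wells sit above all vehicle wells of their time in every panel but that of Acot9, and the open circle of 48 h vehicle replicate 4 is the lowest vehicle point in most panels.

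Acot1, the cytosolic long-chain thioesterase, went from signals mostly below the filter threshold in vehicle wells to high ones in every treated well. In 24 h vehicle wells its signals were 172, 57.7, 122, 137 and 69.5, all below the filter threshold of 281. At 24 h they were 46407, 48755, 45736, 47765 and 46689.5 at 8 µM. They were 48109, 51439, 53835, 46327 and 48204 at 200 µM. The lowest treated well was 266 times the highest vehicle well at 8 µM and 269 times at 200 µM. With each vehicle well set to the higher of its own signal and the threshold, the mean log2 signals give a rise of 158-fold at 8 µM and 167-fold at 200 µM. These values describe the wells measured and carry no interval. The fitted log2 differences, which take the vehicle signals at face value, were 8.61 and 8.69. Their size depends on the constant added before the logarithm: at 8 µM and 24 h it was 8.82 with 1 and 8.11 with 64. No p is given for these differences, since Acot1 passed the filter through the treated wells and so had to differ.

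At 48 h the vehicle wells of Acot1 were spread more widely, at 1624, 302, 127, 54.2 and 171. Replicate 1 was more than any other vehicle well of either time, and replicate 4, the array that stood apart, was the lowest. The treated wells were 52168, 54172, 51342, 52101 and 54959 at 8 µM and 53491, 56745.5, 54512, 54643 and 51385 at 200 µM. Even the lowest treated well was 31.6 times the highest vehicle well at 8 µM and 31.6 times at 200 µM. Of these vehicle wells 2 of 5 were above the filter threshold. With the others set to the threshold the rise was 125-fold at 8 µM and 128-fold at 200 µM, again without an interval. The fitted log2 differences were 7.73 and 7.76, again given without a p. The fitted value ranged from 7.27 to 8.40 at 8 µM when single arrays were left out, lowest without replicate 4 and highest without replicate 1 of this vehicle group.

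Acot2, the mitochondrial long-chain enzyme and the genomic neighbour of Acot1, was well above the filter without the agonist. By the probe set used for the gene, vehicle wells gave 6426, 5571, 6193, 5583 and 6295 at 24 h. Treated wells gave 30827, 31179.9, 31265.5, 29315 and 30345 at 8 µM and 33516, 34574, 33644, 32762 and 34579 at 200 µM. No treated well came near the vehicle wells, and here the wells of 200 µM also lay above all wells of 8 µM. At 48 h the vehicle wells were 7589.8, 6619, 6221, 4665 and 5527. The treated wells were 35362, 36943, 33112, 33069.7 and 33642 at 8 µM and 35837.5, 35772, 31817, 36258.5 and 31539 at 200 µM, and these overlapped each other. The log2 fold changes were 2.35 ± 0.078 and 2.49 ± 0.078 at 24 h and 2.51 ± 0.078 and 2.50 ± 0.078 at 48 h, about 5.08-fold to 5.68-fold (adjusted p from 4.4e-22 to 4.7e-23, limma, Benjamini-Hochberg over all genes). The 48 h values were 2.41 at 8 µM and 2.40 at 200 µM without 48 h vehicle replicate 4.

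The other probe sets of Acot2 also rose in every treated comparison. The probe set of middle brightness gave log2 fold changes of 2.25 ± 0.080 and 2.30 ± 0.080 at 24 h and 2.46 ± 0.080 and 2.52 ± 0.080 at 48 h. The dimmest gave larger ones, 2.59 ± 0.10, 2.95 ± 0.10, 3.04 ± 0.10 and 3.33 ± 0.10 in the same order. In that probe set the wells of 8 µM gave 7291 to 9720.4 at 24 h and 11149 to 13102 at 48 h. Those of 200 µM gave 9694 to 12868 at 24 h and 13620 to 15657 at 48 h. The change of effect with time in this probe set did not pass, at 0.46 ± 0.14 for 8 µM (adjusted p = 0.11) and 0.38 ± 0.14 for 200 µM (adjusted p = 0.238). One further probe set of the array carries the symbols of both Acot1 and Acot2 and was not used. Sequences of the probes were not used here, so how far those of Acot2 and of its close relatives Acot1, Acot3 and Acot4 bind each other's transcripts was not tested.

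Acot3, a peroxisomal enzyme of the same gene cluster, rose about 4.22-fold to 5.57-fold. Vehicle wells gave 825, 737, 722, 432 and 565 at 24 h. Treated wells gave 2943, 2935, 3078, 3163 and 3089.9 at 8 µM and 2822, 2764, 2772, 2481 and 2939 at 200 µM. All were above every vehicle well, and the doses overlapped only in the highest well of 200 µM. At 48 h the vehicle wells were 857, 864, 951, 149.6 and 768, with replicate 4 far below the rest. The treated wells were 3367, 3357, 3287, 3693 and 3689 at 8 µM and 2977, 3197, 3187, 3212 and 3239 at 200 µM. The log2 fold changes were 2.22 ± 0.26 and 2.08 ± 0.26 at 24 h (adjusted p = 2.9e-08 and 1.3e-07). They were 2.48 ± 0.26 and 2.34 ± 0.26 at 48 h (adjusted p = 2.0e-09 and 7.8e-09), and 2.00 ± 0.11 and 1.86 ± 0.11 without replicate 4, whose absence also cut the standard errors.

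Acot4, a peroxisomal thioesterase known for succinyl-CoA and dicarboxylyl-CoAs, rose about 5.57-fold to 6.14-fold. Vehicle wells gave 2372, 1884, 2756, 2235 and 2904 at 24 h and 3092, 3228, 2719, 1651 and 2947 at 48 h. At 24 h treated wells gave 13247.5, 14053, 14491, 14906 and 14468 at 8 µM and 13462, 13559, 14141, 12922 and 13211 at 200 µM. The doses overlapped, as they did at 48 h, where the wells were 16002, 15923, 16720.5, 15701 and 17692 at 8 µM and 15757, 14999.5, 14523, 14641 and 16212 at 200 µM. Log2 fold changes were 2.56 ± 0.11, 2.48 ± 0.11, 2.62 ± 0.11 and 2.51 ± 0.11, with adjusted p from 3.4e-18 to 3.1e-19. The 48 h values of Acot4 were 2.45 at 8 µM and 2.34 at 200 µM without 48 h vehicle replicate 4. Its promoter window holds a near match to the PPARα repeat directly before the start site, shown above, as those of Acot2 and Acot3 do not. Any part of this match in the rise was not tested.

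Acot8, a peroxisomal hotdog-fold enzyme of broad substrate range, was the member in which the doses differed. Vehicle wells gave 3071, 2414, 3749, 2867 and 2752 at 24 h. At 8 µM the wells were at 6766, 6643, 7401, 6556 and 7535, and at 200 µM at 4323, 4769, 5207, 4646 and 5038. All wells of 200 µM lay above the vehicle wells and below the wells of 8 µM. At 48 h vehicle wells gave 3263, 3485, 2895, 2068 and 2902. The wells of 8 µM were at 8451, 8568, 8751, 8088 and 9616 and those of 200 µM at 6177, 5619, 5050.4, 5428 and 5569, again without overlap between any pair of groups. Log2 fold changes against vehicle were 1.24 ± 0.10 at 8 µM and 0.70 ± 0.10 at 200 µM after 24 h, and 1.59 ± 0.10 and 0.95 ± 0.10 after 48 h (adjusted p = 7.0e-12, 1.6e-06, 9.7e-15 and 3.1e-09). The 48 h values were 1.47 at 8 µM and 0.83 at 200 µM without 48 h vehicle replicate 4.

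Acot7, a cytosolic enzyme first known from brain that prefers long-chain acyl-CoAs such as arachidonoyl-CoA, rose about 3.13-fold to 3.75-fold by its brighter probe set. Vehicle wells gave 4795, 3997, 3644, 3807.5 and 4128 at 24 h and 3808, 4369.7, 4109, 4794 and 3305 at 48 h. The treated wells of 24 h were 12244, 13940.5, 13310.3, 15785 and 14551 at 8 µM and 11372, 12939.7, 13963, 12406 and 13198 at 200 µM. Those of 48 h were 15319.8, 12886, 14733, 13562 and 15883 at 8 µM and 14744, 16436, 15123, 13539 and 16459.9 at 200 µM. No treated well reached down to a vehicle well, and the doses overlapped at both times. Log2 fold changes were 1.77 ± 0.086, 1.65 ± 0.086, 1.83 ± 0.086 and 1.91 ± 0.086 (adjusted p from 1.1e-16 to 1.4e-18). Here 48 h vehicle replicate 4 was the highest vehicle well of its time. The 48 h values were 1.89 at 8 µM and 1.97 at 200 µM without it. The dimmer probe set had group means of 206 to 312, near the filter threshold, and passed in none of these comparisons (0.37 ± 0.50 at 8 µM and 24 h, adjusted p = 0.72). With the mean of both probe sets the log2 fold change at 8 µM went from 1.77 to 1.07 at 24 h and from 1.83 to 0.85 at 48 h, still past the threshold.

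**Figure D2:**
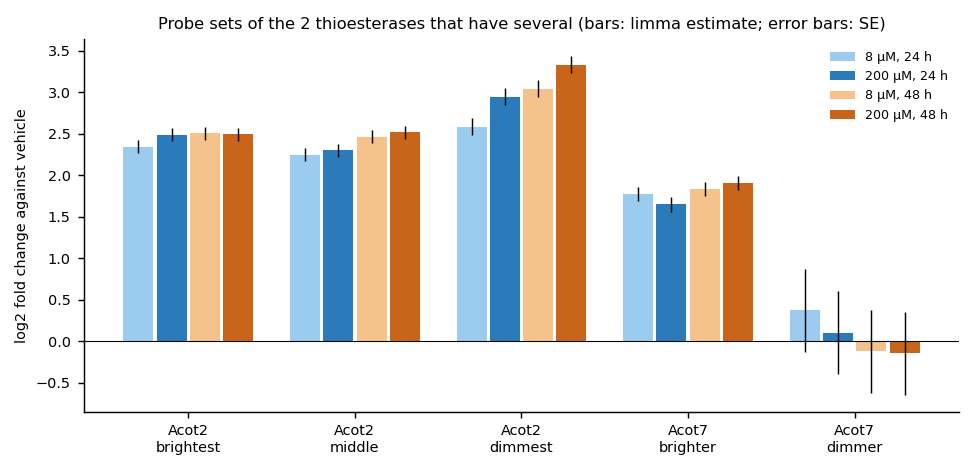
Log2 fold change against vehicle (vertical axis, no unit) of each probe set of Acot2 and Acot7, named by their order of mean signal, with bars for the 4 dose and time groups and error bars of 1 SE. The 3 probe sets of Acot2 all rose, the dimmest the most, whereas only the brighter of the 2 probe sets of Acot7 did.

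Acot12, a cytosolic enzyme known for hydrolysing acetyl-CoA, rose about 2.78-fold to 3.59-fold. Vehicle wells gave 3215, 3199.6, 3612, 3179.8 and 3726 at 24 h and 3557, 3387, 3355, 2047 and 3654 at 48 h, where replicate 4 was again the lowest. The treated wells of 24 h were 8803, 9842, 10529, 11053 and 10633 at 8 µM and 11354, 10867, 10184, 12032.5 and 12904 at 200 µM. Those of 48 h were 6677, 8463, 8351, 9485 and 11398 at 8 µM and 10172, 10372, 12149.6, 10937.5 and 13154 at 200 µM. The wells of 8 µM at 48 h were the most scattered of the treated groups, and both doses stayed above all vehicle wells. Log2 fold changes were 1.58 ± 0.12 and 1.75 ± 0.12 at 24 h and 1.47 ± 0.12 and 1.85 ± 0.12 at 48 h (adjusted p from 6.1e-12 at 8 µM to 2.9e-14 at 200 µM, both at 48 h). The 48 h values were 1.32 at 8 µM and 1.69 at 200 µM without 48 h vehicle replicate 4.

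Acot13, also called Them2, a small enzyme at mitochondria, rose by less, about 1.21-fold to 1.39-fold. Vehicle wells gave 3521, 3688, 3626, 4267 and 4283 at 24 h and 3697, 3631, 3828, 2326 and 3875 at 48 h. The treated wells of 24 h were 4457, 4989, 4699.7, 4579 and 4759 at 8 µM and 5034, 5175, 5062, 4666 and 4798 at 200 µM. Those of 48 h were 4439, 4822, 4731, 4701 and 5154 at 8 µM and 4759, 4738, 4781, 4803 and 4576 at 200 µM. Treated wells did not overlap the vehicle wells of their time, while the doses overlapped each other. At 24 h the lowest well of 8 µM was only 1.04 times the highest vehicle well. The log2 fold change was 0.28 ± 0.089 (adjusted p = 0.0178) and 0.35 ± 0.089 (adjusted p = 0.00264) at 24 h. It was 0.48 ± 0.089 and 0.47 ± 0.089 at 48 h, and 0.34 and 0.33 without replicate 4. The 24 h calls ended after median centring, with estimates of 0.31 and 0.37 and a standard error of 0.18 (adjusted p = 0.32 and 0.209). The call at 8 µM also ended without 24 h vehicle replicate 1 (adjusted p = 0.0578). Both 24 h calls held without 48 h vehicle replicate 4, which bears on the shared error only (adjusted p = 9.25e-05 and 2.79e-06).

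Acot9, a mitochondrial matrix enzyme, was the member that did not rise at 24 h. Vehicle wells gave 8036, 8664, 8399.9, 9391 and 9089 at 24 h. Treated wells gave 8156, 8674, 8852, 8254 and 8157 at 8 µM and 8297, 8244, 8171, 7762 and 7513 at 200 µM. The groups overlapped, with log2 fold changes of -0.049 ± 0.072 (95% interval -0.20 to 0.098, adjusted p = 0.713) and -0.12 ± 0.072 (-0.27 to 0.024, adjusted p = 0.246). At 48 h vehicle wells gave 8886, 10415, 9642, 7506 and 10343. Those of 8 µM gave 11713, 10373.5, 11692, 10809 and 9644 and those of 200 µM gave 9799, 10356, 9728, 10867 and 8878. The log2 fold change was 0.22 ± 0.072 at 8 µM (adjusted p = 0.0163) and 0.092 ± 0.072 at 200 µM (adjusted p = 0.358). The call at 8 µM ended without 48 h vehicle replicate 4 (0.14, adjusted p = 0.0706), without replicate 1 or 3 of the 8 µM wells (adjusted p = 0.0533 for each), after quantile normalization (adjusted p = 0.0682), after median centring (adjusted p = 0.0561) and in a fit of the 48 h arrays alone (adjusted p = 0.0685).

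**Figure D3:**
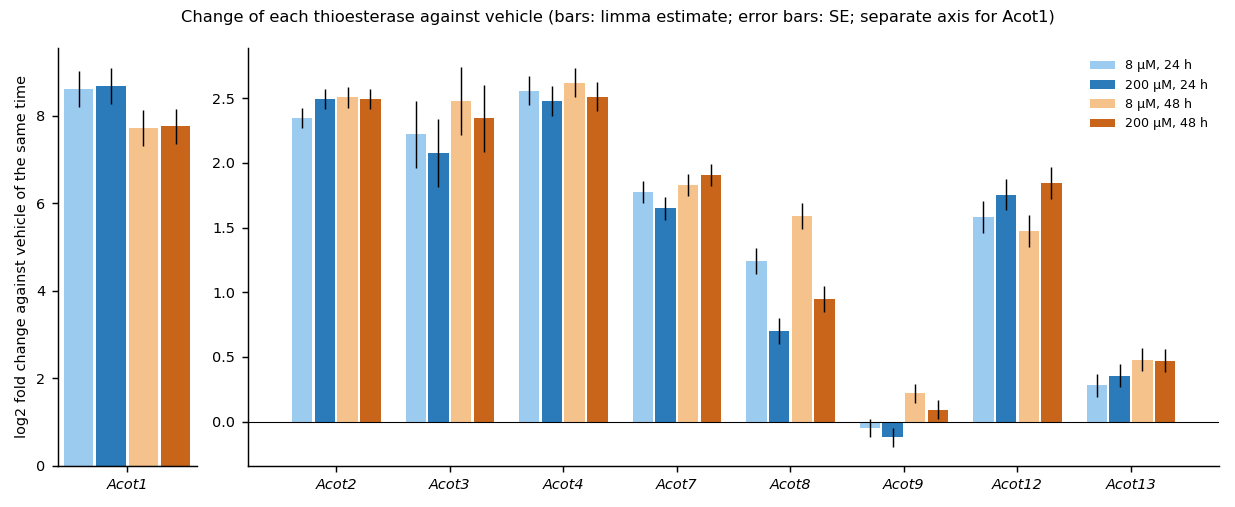
Log2 fold change of each thioesterase against the vehicle of the same time (vertical axis, no unit), with bars for the 4 dose and time groups, error bars of 1 SE and an axis of its own for Acot1. Acot1, fitted against vehicle wells mostly below the filter threshold, stands at 7.73 to 8.69, Acot2, Acot3 and Acot4 between 2.08 and 2.62, Acot7 and Acot12 between 1.47 and 1.91, Acot8 lower at 200 µM than at 8 µM, and Acot9 near 0.

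The doses were compared directly to ask whether the higher concentration changed the family further. Acot8 was lower at 200 µM than at 8 µM, with a log2 difference of -0.54 ± 0.10 at 24 h (95% interval -0.75 to -0.33, adjusted p = 9.7e-04) and -0.64 ± 0.10 at 48 h (-0.85 to -0.44, adjusted p = 6.1e-05). It was the 1 member of 9 that passed at 24 h, where 1.63% of all genes were lower and 1.39% higher at 200 µM, and the 1 that passed at 48 h, where 2.53% were lower and 2.26% higher. Its wells did not overlap at either time. Both calls ended after median centring, with the estimate at -0.56 (adjusted p = 0.4) and -0.67 (adjusted p = 0.107) and the standard error at 0.19. Both held without 48 h vehicle replicate 4 (adjusted p = 2.61e-05 and 1.18e-06). Acot12 lay the other way. At 48 h it was higher at 200 µM by 0.37 ± 0.12 (0.12 to 0.62), which did not pass (adjusted p = 0.0759) in the fit of all arrays. It passed without 48 h vehicle replicate 4, which bears on the shared error only (adjusted p = 0.00902, with 4.34% of all genes higher), and without replicate 5 of 8 µM (0.47, adjusted p = 0.0194). At 24 h the difference was 0.17 ± 0.12 (adjusted p = 0.662).

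The remaining members did not pass between the doses at either time. For Acot1 the log2 difference was 0.073 at 24 h (95% interval -0.75 to 0.90) and 0.032 at 48 h (-0.80 to 0.86), the widest intervals of the family. Their width reflects a spread that the fit shares over all 6 groups, vehicle wells included. The SD of log2 signal of Acot1 was 0.036 to 0.087 in the treated groups, against 0.57 and 1.71 in the vehicle groups. Its mean signals at 8 µM and 200 µM were 47070.5 and 49583 at 24 h, and 52948 and 54155 at 48 h. For Acot2 the log2 difference was 0.14 (-0.014 to 0.30) and -0.0090 (-0.17 to 0.15) by the probe set used for the gene. Its dimmest probe set was at 0.36 (0.15 to 0.57) and 0.29 (0.082 to 0.50). Neither passed in the limma fit of all probe sets kept (adjusted p = 0.0574 and 0.14). The log2 difference by its probe set of middle brightness was 0.053 (-0.11 to 0.22) and 0.055 (-0.11 to 0.22). For Acot3 it was -0.14 (-0.68 to 0.39) and -0.14 (-0.67 to 0.40). Its standard error at both times was 0.26 in the fit of all arrays and 0.10 without 48 h vehicle replicate 4. Neither difference of Acot3 passed in that second fit (adjusted p = 0.531 and 0.51). Acot2 at 24 h, higher at 200 µM, and Acot3 at 48 h, lower at 200 µM, had wells that did not overlap between the doses and still did not pass. Of all genes 3.36% were higher and 3.57% lower without overlap at 24 h, and 4.23% were lower at 48 h. The interval for Acot4 was -0.31 to 0.15 at 24 h and -0.34 to 0.12 at 48 h, that for Acot7 -0.30 to 0.049 and -0.099 to 0.25, that for Acot9 -0.22 to 0.072 and -0.27 to 0.019, and that for Acot13 -0.11 to 0.26 and -0.19 to 0.17.

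**Figure D4:**
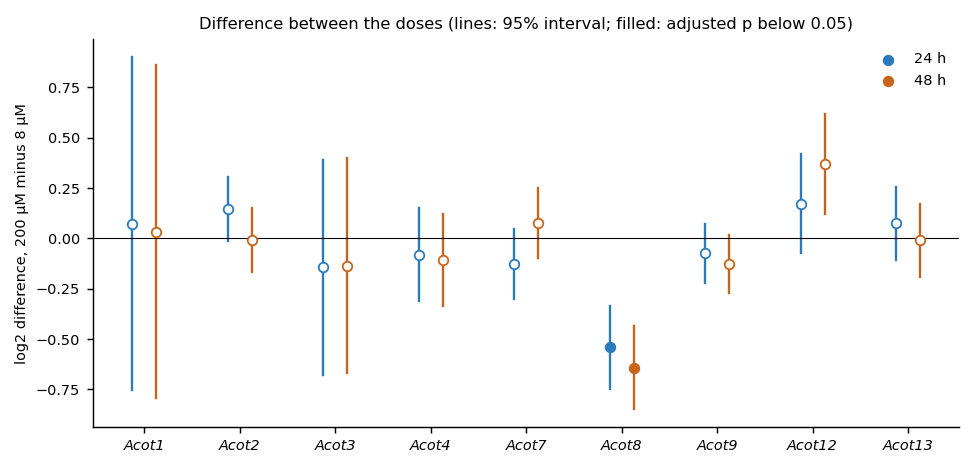
Difference of each thioesterase between 200 µM and 8 µM on the log2 scale (vertical axis), at 24 h in blue and 48 h in orange, with lines for the 95% interval and filled points for adjusted p below 0.05. Acot8 alone is filled, at -0.54 and -0.64, and the intervals of Acot1 and Acot3 are the widest. The fit shares 1 spread over treated and vehicle wells.

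Signs of other cells and of RNA length moved with some of these groups. Of 9 Kupffer cell and macrophage markers 8 had a probe set and 6 of these were above the filter, with Adgre1 and Ptprc below it. Their summed signal at 24 h was 4788 to 6317 in vehicle wells, 4777 to 5820.4 at 8 µM and 4476 to 4963 at 200 µM. At 48 h it was 3262 to 5154, 3996 to 4347 and 2525 to 3131, lowest at the dose where Acot8 was lower. The summed signal of the 9 hepatocyte markers was 478256 to 561876 in vehicle wells, 436373 to 476349 at 8 µM and 438951 to 493332 at 200 µM at 24 h, and 357291 to 528849, 352838 to 407775 and 345453 to 392370 at 48 h. Among bile duct markers 2 of 4 with a probe set were above the filter, Krt7 and Spp1 being below it. Their sum was 8033 to 10089, 7668 to 8701 and 6679 to 7827 for vehicle, 8 µM and 200 µM at 24 h, and 9472 to 13215.5, 10727 to 11947 and 9572 to 10583 at 48 h. Most of this sum was Epcam, with a median signal of 9502 over all arrays, against 133 for Krt19, 41.4 for Spp1 and 20.8 for Krt7. Between the doses the group means of this sum were 8094 and 7105 at 24 h and 11333 and 10048 at 48 h, lower at 200 µM as for Acot8. Endothelial markers, 5 of 6 above the filter with Vwf below it, summed to 2117 to 2766, 2273 to 2863 and 1659 to 2591 at 24 h and 1531 to 3714, 1534 to 2013 and 1187 to 1715 at 48 h, with means of 2484 and 2160.4 between the doses at 24 h and 1805 and 1512 at 48 h. Stellate cell markers, 5 of 8 above the filter with Lrat, Pdgfrb and Pdgfra below it, summed to 2909.8 to 3228, 2946 to 3234 and 2642 to 3212 at 24 h and 3118 to 6289.7, 3008 to 3496 and 2733 to 3158 at 48 h. No listed marker with a probe set was at 0, but median signals over all arrays went down to 20.8, that of Krt7. The β-actin probe sets at the 3′ and 5′ ends had a signal ratio, a sign of RNA length, of 2.86 ± 0.278, 3.10 ± 0.214 and 3.31 ± 0.169 (SD, n = 5) for vehicle, 8 µM and 200 µM at 24 h, and 2.61 ± 0.313, 3.26 ± 0.417 and 3.10 ± 0.201 at 48 h. The same ratio of the GAPDH probe sets went the other way, with its highest mean in vehicle wells at both times. In the same order it was 1.19 ± 0.021, 1.14 ± 0.041 and 1.16 ± 0.019 (SD, n = 5) at 24 h. At 48 h it was 1.18 ± 0.043, 1.15 ± 0.028 and 1.15 ± 0.0083. The part of these signs in the results for the thioesterases was not tested. In RNA from a whole well, fewer cells of a type and less RNA per cell cannot be told apart.

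The effect of each dose was compared between 24 h and 48 h with an interaction term. By limma 0 of 9 members passed for 8 µM, where 1.67% of all genes had a higher and 1.23% a lower effect at 48 h. At an unadjusted p under 0.05 there were 2, Acot8 at 0.35 ± 0.14 (adjusted p = 0.234) and Acot9 at 0.27 ± 0.10 (adjusted p = 0.18). For 200 µM 0 of 9 passed, against 1.3% and 1.11% of all genes, and 2 had an unadjusted p under 0.05, Acot7 at 0.26 ± 0.12 (adjusted p = 0.336) and Acot9 at 0.21 ± 0.10 (adjusted p = 0.343). Acot1 had the most negative estimates, -0.89 ± 0.57 and -0.93 ± 0.57, with 95% intervals of -2.06 to 0.28 and -2.10 to 0.24. These rest on single vehicle wells of 48 h: they were -0.21 and -0.25 without replicate 1 (adjusted p = 0.805 and 0.775) and -1.35 and -1.39 without replicate 4 (adjusted p = 0.129 and 0.124). The mean vehicle signal of Acot1 was 112 ± 47.7 (SD, n = 5) at 24 h and 456 ± 659 at 48 h, and 164 at 48 h without replicate 1.

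Without the agonist no member passed between 48 h and 24 h when all arrays were used. By limma 0 of 9 were called, against 4.46% of all genes higher and 5.4% lower at 48 h, and 1, Acot1 at 1.06 ± 0.41 (adjusted p = 0.0977), had an unadjusted p under 0.05. Without 48 h vehicle replicate 4 there were 3 of 9 higher at 48 h, against 6.04% of all genes. These were Acot1 at 1.52 ± 0.36 (adjusted p = 0.00451), Acot3 at 0.41 ± 0.11 (adjusted p = 0.0103) and Acot4 at 0.31 ± 0.077 (adjusted p = 0.00593). Acot1 was at 0.38 (adjusted p = 0.345) when 48 h vehicle replicate 1 was left out instead. All 3 belong to the cluster on chromosome 6. Acot2 of the same cluster was at 0.10 ± 0.062 (adjusted p = 0.354), and with replicate 4 in the fit Acot3 was at -0.067 ± 0.26. Acot1 was below the filter threshold in all vehicle wells but replicates 1 and 2 of 48 h.

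The order of the treated group means differed between members. Acot4 went up from 200 µM at 24 h through 8 µM at 24 h and 200 µM at 48 h to 8 µM at 48 h, each overlapping its neighbour. Acot8 went from 200 µM at 24 h and 48 h, which overlapped, to 8 µM at 24 h and then 8 µM at 48 h, with no overlap at either step. Acot12 had both 8 µM groups below both 200 µM groups, each overlapping its neighbour. Acot9 had all 24 h groups below all 48 h groups, from 200 µM at 24 h (7997 ± 343, SD) to 8 µM at 48 h (10846 ± 885), and every neighbour overlapped.

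Likeness of pattern was measured as Pearson's r over the 6 group means of log2 signal, a description over few points that share libraries. Acot1, Acot2, Acot3, Acot4 and Acot7 were at 0.992 to 0.998 with each other, Acot8 at 0.890 with Acot1, and Acot9 at 0.139. The genes outside the family most like Acot1 were Ets2 (0.999), Cyp4a1 (0.999) and Cyp4a3 (0.999), and those most like Acot2 were Hsdl2, Prelid2 and Pdk4 (each 0.999 or above). For Acot3 they were Dcaf6, Rab9a and Adtrp, for Acot4 Adtrp, Cacna2d3 and Elovl6, and for Acot7 Dcaf6, Slc25a42 and Slc25a34. Such values are common in this design: 57 genes outside the family reached 0.99 with Acot1 and 103 with Acot3. Fewer did so with Acot8, 16, led by Lamtor4, Ddhd2 and Gpc3. Acot12 had 17, led by Trmt6, Mrpl47 and Alkbh6, Acot13 had 14, led by Chordc1, Rnf125 and Alkbh3, and Acot9 had 5, led by St8sia3, Lhpp and Nit2.

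The enzymes that surround the thioesterases were followed by list, and the counts stand beside the shares of all genes. At 8 µM 11.1% of all genes rose and 13.8% fell at 24 h, and 16.7% and 18.9% at 48 h. At 200 µM these shares were 11.6% and 13.1% at 24 h, and 16.8% and 17.1% at 48 h. Coenzyme A is supplied by pantothenate kinases and the steps after them, and of 12 such genes measured 5 rose and 0 fell at 8 µM and 24 h, and 7 rose and 1 fell at 48 h. At 200 µM 5 rose at 24 h, and 6 rose and 2 fell at 48 h. The kinase Pank1, which controls the entry step, was at 1.95 ± 0.071 and 2.06 ± 0.071 at 8 µM (adjusted p = 4.4e-21 and 6.9e-22). The pantetheinase Vnn1, which recycles pantothenate, was at 1.84 ± 0.090 and 1.87 ± 0.090, and the synthetase Ppcs, which acts after the kinases, at 0.81 ± 0.064 and 0.94 ± 0.064. The list's median log2 fold change was 0.070 at 24 h and 0.60 at 48 h, against -0.03 and -0.06 for all genes.

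Among 10 other hydrolases of acyl-CoA or coenzyme A measured, 4 rose at 8 µM and 24 h and 3 at 48 h, 4 rose at 200 µM at each time, and none fell, where 11.1%, 16.7%, 11.6% and 16.8% of all genes rose in the same order (8 µM at 24 h and 48 h, then 200 µM). Nudt7, a peroxisomal enzyme that cleaves coenzyme A, was at 2.04 ± 0.060 at 24 h and 2.25 ± 0.060 at 48 h for 8 µM, and at 1.76 ± 0.060 and 1.94 ± 0.060 for 200 µM. Like Acot8 it was lower at 200 µM than at 8 µM by limma. The log2 difference was -0.28 ± 0.060 at 24 h and -0.31 ± 0.060 at 48 h (adjusted p = 0.00386 and 9.88e-04). It was the 1 gene of this list that passed between the doses, where 1.63% and 2.53% of all genes were lower. Hibch, which hydrolyses an intermediate of valine breakdown, was at 0.91 ± 0.075 and 1.02 ± 0.075 for 8 µM. The mitochondrial thioesterase Them4 was at 0.95 ± 0.11 and 0.71 ± 0.11 (adjusted p = 4.7e-08 and 6.6e-06). The median of this list was 0.18 at 8 µM and 24 h, while the 9 thioesterases were at 1.77, or at 1.68 without Acot1.

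Of 17 acyl-CoA synthetases, which make the substrates, 7 rose and 3 fell at 8 µM and 24 h and 9 rose and 2 fell at 48 h. At 200 µM these numbers were 7 and 3, and 10 and 2. Of all genes 11.1% rose and 13.8% fell at 8 µM and 24 h and 16.7% and 18.9% at 48 h, with 11.6% and 13.1%, and 16.8% and 17.1%, at 200 µM, which also holds for the lists that follow. Acsl1, the main long-chain synthetase of liver, was at 3.09 ± 0.10 and Acsl3 at 2.44 ± 0.095 at 8 µM and 48 h. Between the doses 3 synthetases were lower and 1 higher at 200 µM at 24 h, against 1.63% and 1.39% of all genes. At 48 h 4 were lower and 2 higher, against 2.53% and 2.26%. Acsl5, Acsm3 and Acss2 were the lower ones at both times, joined by Acsm1 at 48 h, and Acsl4 was higher at both times, joined by Acsm5 at 48 h. The log2 difference of Acsl5 was -0.49 ± 0.073 at 24 h and that of Acsl4 0.45 ± 0.076 (adjusted p = 4.7e-05 and 3.0e-04). In the carnitine shuttle, which carries acyl groups into mitochondria, 7 of 8 genes rose in each of the 4 comparisons and none fell, with medians of 1.82 and 2.00 at 8 µM. At 8 µM and 48 h Cpt1a, the entry enzyme of the shuttle, was at 2.84 ± 0.097, its muscle form Cpt1b at 3.88 ± 0.13 and the peroxisomal octanoyltransferase Crot at 1.97 ± 0.064. Of 7 genes of acyl-CoA binding and peroxisomal import 2 rose and 3 fell at 8 µM and 24 h and 3 rose and 2 fell at 48 h. The peroxisomal importer Abcd3 was at 1.14 ± 0.087 at 48 h and the binding protein Acbd4 at -0.87 ± 0.11. At 200 µM 2 rose and 2 fell at 24 h and 3 rose and 2 fell at 48 h.

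**Figure D5:**
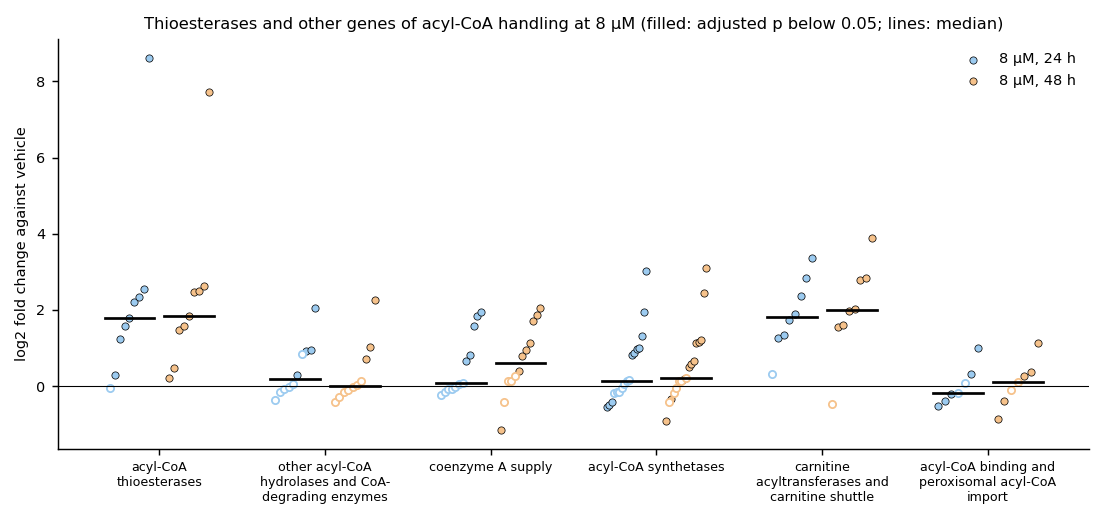
Log2 fold change at 8 µM against vehicle (vertical axis, no unit) of the 9 thioesterases and of 5 lists of genes that handle acyl-CoA or coenzyme A, at 24 h in blue and 48 h in orange, with 1 point a gene, filled where adjusted p is below 0.05, and a line at the median. The medians of the thioesterases (1.77 and 1.83) and of the carnitine shuttle (1.82 and 2.00) stand above those of the other lists.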

How the data were processed

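RNA of 30 wells was measured on Affymetrix arrays. Per the submitters' processing notes the authors used MAS5, and the deposited values are its signal intensity on a linear scale; version, scaling target and chip definition are not given in the sources used here. Their scaling was kept. The platform annotation named the probe sets, of which those with 1 symbol were used. Values were tested as log2(signal + 16). The filter kept probe sets that exceeded 281.361, the 40th percentile of all values, on at least 5 arrays, and control probe sets were dropped. The probe set with the highest mean stood for its gene. One model of group means held all 30 arrays (limma 3.58.1 in R 4.3.3; eBayes with trend), and its tests were two-sided, adjusted by Benjamini-Hochberg over 11545 genes, threshold 0.05, after a test on simulated data. Rose and fell are used below this threshold. The 5 wells per group limit the precision, and arrays give no count of molecules. Replicate numbers follow accession order and pair nothing.

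Members, lists and tests were chosen with earlier results of these data known. Named were all members, up to 3 genes of each list with the largest statistic in a treated comparison, and the 3 genes most like each member; the synthetases that differed between the doses were named after their values were seen. Alternatives were median centring, quantile normalization, a pseudocount of 1 or of 64, dropping the filter, a filter at the 60th percentile (637.335), averaging a gene's probe sets, testing all probe sets, array weights, fits without the variance trend, fits of only the arrays compared, a block by runs of 6 array numbers, and leaving out each array. Promoter sequences are RefSeq's (GRCr8). Plots were made with Python 3.11.15 and matplotlib 3.10.9.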

Additional observations from a re-analysis of the deposited data

Results flagged for a closer look

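In each set of 5 wells, 72 in all over 12 probe sets and 6 groups, the highest and the lowest well were set against the rest by Dixon's ratio, the gap to the nearest well divided by the whole range on the log2 scale. Chance marks about 1 set in 20, and 7 were marked. In 4 of them the well was 48 h vehicle replicate 4, the array that stood apart over all genes. Its Acot3 signal was 150 against 768 to 951 in the other wells (ratio 0.881). Its Acot13 signal was 2326 against 3631 to 3875 (0.873), its Acot12 signal 2047 against 3355 to 3654 (0.852) and its Acot4 signal 1651 against 2719 to 3228 (0.744). The other 3 were treated wells. Acot3 at 200 µM and 48 h was 2977 in replicate 1 against 3187 to 3239 (0.808). Acot13 in the same group was 4576 in replicate 5 against 4738 to 4803 (0.717). Acot2 by its dimmest probe set at 200 µM and 24 h was 12868 in replicate 5 against 9694 to 10499 (0.718).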

How the results depend on the processing

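Each result was refitted under 42 alternatives, 30 of which left out 1 array. Of 36 log2 fold changes of members against vehicle 33 were called, and 1377 of their 1386 values under the alternatives kept direction and threshold. The other 9 belong to Acot13 at 24 h and Acot9 at 8 µM and 48 h, as given with these genes. Between the doses, members lower at 200 µM went from 1 to 0 at 24 h and at 48 h after median centring. Members higher at 200 µM and 48 h went from 0 to 1, Acot12, with array weights and with a replicate block of 6 consecutive array numbers (0.37, adjusted p = 0.0413), and leaving out single arrays gave 0 to 1. That block changed no other call of a member. It rests on array numbers alone, since the labels pair no wells. Between the vehicle groups, members higher at 48 h went from 0 to 3 with array weights, and leaving out single arrays gave 0 to 3. There Acot3 turned from -0.067 to 0.43 with array weights and to 0.41 without 48 h vehicle replicate 4, and leaving out single arrays gave -0.22 to 0.41. Why these settings moved the calls was not tested. Median centring raised the standard error of Acot8 between the doses from 0.10 to 0.19. The estimates went from -0.54 to -0.56 at 24 h and from -0.64 to -0.67 at 48 h. The array that this centring shifts most is 48 h vehicle replicate 4, with a median of 765 against 385 to 439. The values carry no detection call, so signals under the filter threshold, such as those of Acot1 in vehicle wells, have no firm level.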
